A study of Mus musculus with 20 samples.

Results

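The constitutive androstane receptor (CAR, encoded by *Nr1i3*) and the pregnane X receptor (PXR, encoded by *Nr1i2*) were followed in mouse liver together with P450 oxidoreductase (*Por*) and 7 cytochrome P450 genes of the *Cyp2a* and *Cyp2b* subfamilies, *Cyp2a4*, *Cyp2a5*, *Cyp2a12*, *Cyp2a22*, *Cyp2b9*, *Cyp2b10* and *Cyp2b13*. These 10 genes were selected by symbol from the 54532 genes of the count table, with group values of these data already known, and each symbol matched 1 row. All 20 livers came from male C57BL/6 mice made obese on a high-fat diet for 12 weeks before surgery. The study describes the transcriptomes as those of the fasted state. Every mouse then had Roux-en-Y gastric bypass (RYGB) or a sham operation and ate chow or the high-fat diet (HFD) for 8 weeks, which gave 4 groups of 5 mice: Sham HFD and Sham Chow among sham-operated animals, RYGB HFD and RYGB Chow among bypassed ones. Sham Chow mice were therefore formerly obese animals moved to chow and not animals that had always been lean. The study describes the Sham HFD mice as heavier than all other groups and names body weight a confounding variable. In contrasts with Sham HFD, an effect of diet or surgery cannot be told apart from one of body weight. Poly-A RNA of 1 liver per mouse was sequenced, and total counts ran from 14604854 to 22537498 per library.

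CAR and PXR are nuclear receptors that pair with the retinoid X receptor, sense drugs, bile acids and other small molecules, and switch on genes that clear them. CAR is held in the cytoplasm until activated and its classical mouse target is *Cyp2b10*, while PXR is best known for inducing *Cyp3a11*. Much of the control of both receptors is by ligand, phosphorylation and location in the cell, which an mRNA level does not show. *Por* supplies the electrons that every microsomal P450 enzyme needs. *Cyp2a5* hydroxylates coumarin and nicotine, and *Cyp2a4*, *Cyp2b9* and *Cyp2b13* are textbook examples of P450 genes that are expressed more in female than in male mouse liver.

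The 7 P450 genes lie in the same gene cluster on chromosome 7 (GRCm38, the build also called mm10). In the GENCODE annotation, *Cyp2b10* spans chr7:25897620-25926624, *Cyp2b13* chr7:26061497-26096197, *Cyp2b9* chr7:26173411-26210661, *Cyp2a4* chr7:26307169-26315088, *Cyp2a5* chr7:26835305-26843548, *Cyp2a22* chr7:26931631-26939384 and *Cyp2a12* chr7:27029081-27037375, with *Cyp2a22* alone on the minus strand. *Nr1i3* is at chr1:171213970-171220701, *Por* at chr5:135670033-135735326 and *Nr1i2* at chr16:38248323-38294824. Several of the enzymes are close copies of each other. The longest coding transcripts of *Cyp2a4* and *Cyp2a5* were 98.3% identical over their aligned bases, those of *Cyp2a12* and *Cyp2a22* 96.6%, and those of *Cyp2b9* and *Cyp2b13* 91.9%.

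The promoters of these 3 pairs were compared because their members followed either different or parallel courses across the groups. Each sequence below holds the 250 bases before the RefSeq transcription start (GRCm38.p6), 5′ to 3′ on the gene's own strand, and capitals mark bases that differ from the partner or have no partner in the alignment. *Cyp2a4* is at chr7:26306942-26307191 (plus strand) and *Cyp2a5* at chr7:26835089-26835338 (plus strand), with 4 different bases in 249 aligned.
Cyp2a4: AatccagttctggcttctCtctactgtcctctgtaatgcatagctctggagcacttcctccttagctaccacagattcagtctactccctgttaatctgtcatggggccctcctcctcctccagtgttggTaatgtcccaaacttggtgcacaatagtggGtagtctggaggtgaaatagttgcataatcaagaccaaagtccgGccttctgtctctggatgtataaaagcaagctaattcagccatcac
Cyp2a5: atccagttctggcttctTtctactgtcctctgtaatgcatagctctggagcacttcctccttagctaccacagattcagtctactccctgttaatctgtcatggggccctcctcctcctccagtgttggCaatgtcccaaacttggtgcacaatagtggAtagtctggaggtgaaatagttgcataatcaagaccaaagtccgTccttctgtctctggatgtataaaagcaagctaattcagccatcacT
*Cyp2a22* is at chr7:26939387-26939636 (minus strand) and *Cyp2a12* at chr7:27028840-27029089 (plus strand), with 19 different bases in 234 aligned.
Cyp2a22: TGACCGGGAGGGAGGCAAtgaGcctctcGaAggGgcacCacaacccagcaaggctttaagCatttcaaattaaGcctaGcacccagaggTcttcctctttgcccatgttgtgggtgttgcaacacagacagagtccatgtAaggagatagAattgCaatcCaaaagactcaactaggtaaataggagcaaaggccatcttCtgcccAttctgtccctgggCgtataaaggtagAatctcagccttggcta
Cyp2a12: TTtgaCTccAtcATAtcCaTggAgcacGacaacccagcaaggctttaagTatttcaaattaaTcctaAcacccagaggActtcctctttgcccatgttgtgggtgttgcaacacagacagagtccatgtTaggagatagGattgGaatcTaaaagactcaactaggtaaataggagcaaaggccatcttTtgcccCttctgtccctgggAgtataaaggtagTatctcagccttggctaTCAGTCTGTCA
*Cyp2b9* is at chr7:26173159-26173408 (plus strand) and *Cyp2b13* at chr7:26061245-26061494 (plus strand), with 2 different bases in 250 aligned.
Cyp2b9: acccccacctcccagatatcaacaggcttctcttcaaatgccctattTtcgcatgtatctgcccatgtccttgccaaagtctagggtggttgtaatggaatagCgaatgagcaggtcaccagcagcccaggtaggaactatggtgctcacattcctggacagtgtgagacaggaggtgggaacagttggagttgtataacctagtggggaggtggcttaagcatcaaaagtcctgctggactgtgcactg
Cyp2b13: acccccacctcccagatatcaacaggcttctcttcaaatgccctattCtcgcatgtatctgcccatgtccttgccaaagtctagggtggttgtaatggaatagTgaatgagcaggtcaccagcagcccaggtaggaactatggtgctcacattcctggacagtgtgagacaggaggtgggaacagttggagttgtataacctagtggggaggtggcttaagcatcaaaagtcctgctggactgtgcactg
*Cyp2b10* is at chr7:25897408-25897657 (plus strand), and here the 64 capitals mark the bases that differ from *Cyp2b9* or have no partner there.
Cyp2b10: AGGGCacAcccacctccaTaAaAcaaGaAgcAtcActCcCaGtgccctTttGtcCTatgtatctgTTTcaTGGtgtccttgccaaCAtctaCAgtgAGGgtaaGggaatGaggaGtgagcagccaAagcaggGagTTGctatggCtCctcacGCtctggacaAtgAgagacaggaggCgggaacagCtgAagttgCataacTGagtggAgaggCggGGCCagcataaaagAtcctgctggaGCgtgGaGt

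RefSeq promoters were matched for 10 of 10 genes. The half-site AGGTCA, the core that CAR, PXR and other nuclear receptors bind, was found on either strand in 14% of all 32851 promoters of this length, and among the 10 genes in *Cyp2b9* and *Cyp2b13*, 1 match each. A direct repeat of AGGTCA with 4 bases between the copies was in 0.0152% of all promoters and in none of the 10. The motif TTCNNNGAA, which reads the same on both strands and is bound by STAT5, was in 7.02% of all promoters and in none of the 10. These letters are a description of short windows, and the known enhancer elements of such genes can lie outside them.

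All levels below are CPM, read counts scaled to a common library size, corrected by the trimmed mean of M-values (TMM). In every liver of Sham HFD mice, *Cyp2b9*, *Cyp2b13*, *Cyp2a4* and *Cyp2a22* were higher than in any liver of Sham Chow or RYGB HFD mice. How many of all tested genes separate in this way was not computed. *Cyp2a5* and *Cyp2a12*, the close copies of *Cyp2a4* and *Cyp2a22*, did not share this course. *Cyp2b10* went the opposite way by diet in sham mice, with its highest levels in Sham Chow, and had almost no reads in RYGB HFD. The receptor mRNAs *Nr1i2* and *Nr1i3* passed the test in no contrast. The diet effect is HFD over chow and the surgery effect RYGB over sham, both as log2 fold changes, and X vs. Y gives Y over X. They come from edgeR's quasi-likelihood test on all 20 mice, and a gene was called at a Benjamini-Hochberg adjusted p below 0.05 over 12289 tested genes.

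**Figure D1:**
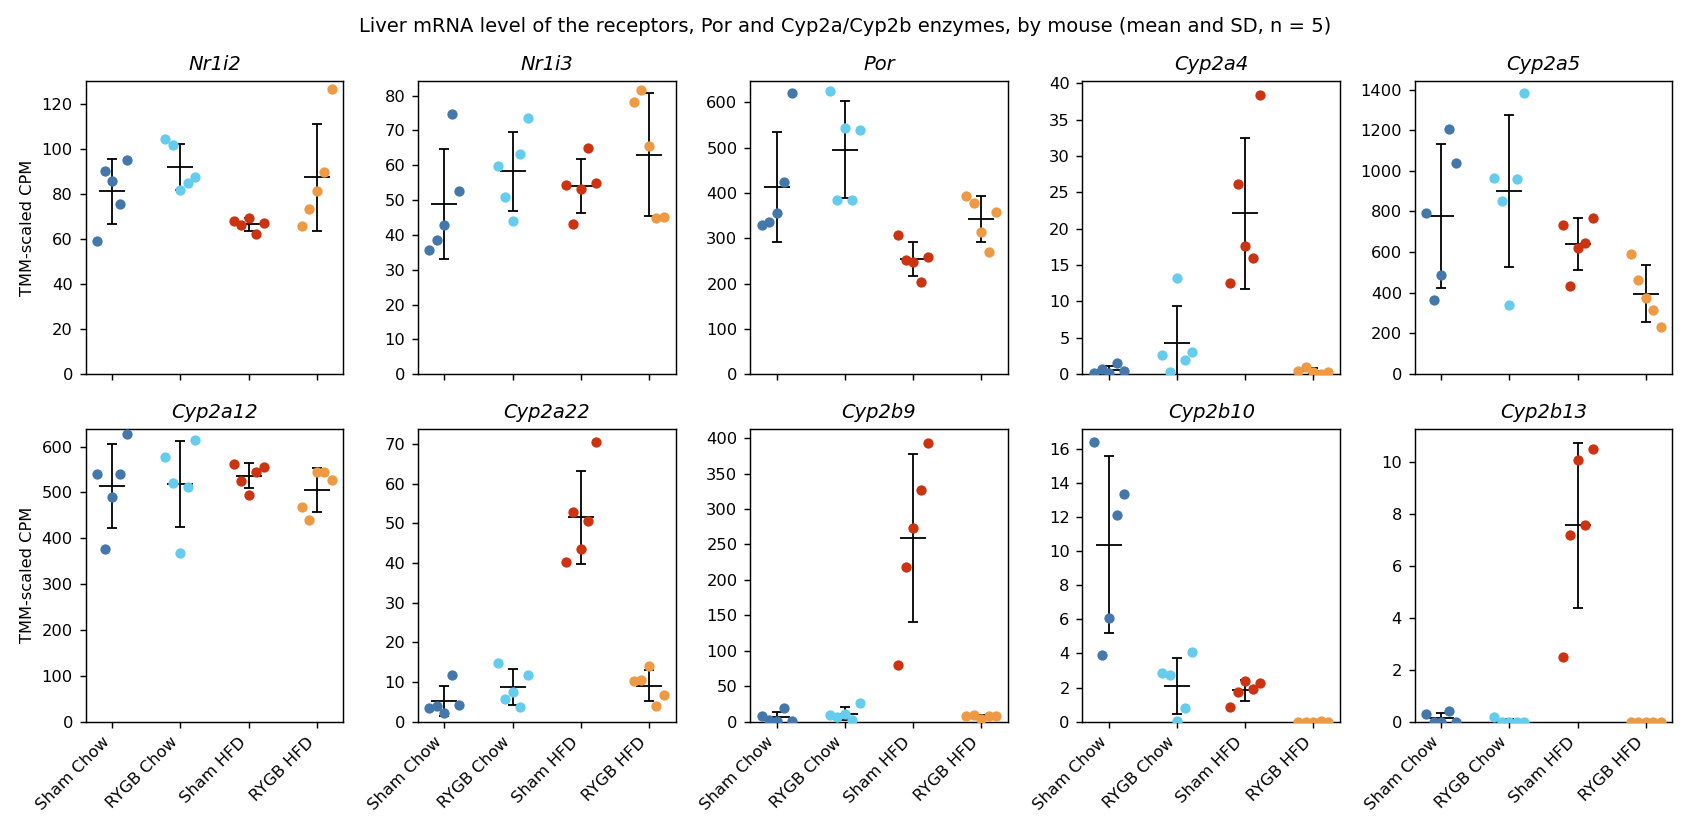
TMM-scaled CPM of each of the 10 genes on the vertical axis of its own panel, with the 4 groups along the horizontal axis. Points are single mice in replicate order, and the bars give the mean and SD of 5 mice. *Cyp2b9*, *Cyp2b13*, *Cyp2a4* and *Cyp2a22* stand high in Sham HFD, while *Cyp2b10* is highest in Sham Chow and *Cyp2a12* is level.

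The receptors are described first. *Nr1i2* was measured at 59.2, 90.4, 85.7, 75.6 and 95.4 CPM in the 5 Sham Chow mice and at 104.7, 101.8, 82.0, 85.1 and 87.7 CPM in the 5 RYGB Chow mice. It was 68.0, 66.3, 69.5, 62.1 and 67.2 CPM in Sham HFD and 65.8, 73.4, 81.6, 90.1 and 127 CPM in RYGB HFD. The Sham HFD values were the tightest and the lowest on average, at 66.6 ± 2.77 CPM (SD, n = 5). They overlapped Sham Chow and RYGB HFD and lay below every RYGB Chow liver. The surgery effect on HFD (Sham HFD vs. RYGB HFD) was 0.39 ± 0.14 (SE) for *Nr1i2*, with an adjusted p of 0.0645, which became 0.0247 without RYGB HFD replicate 1, 0.0430 without Sham Chow replicate 1 and 0.0489 with DESeq2. The diet effect was -0.29 ± 0.14 in sham mice (adjusted p = 0.156) and -0.08 ± 0.14 in RYGB mice (adjusted p = 0.840), and the surgery effect on chow was 0.18 ± 0.14 (adjusted p = 0.691).

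*Nr1i3* was 35.6, 38.5, 42.8, 74.7 and 52.5 CPM in Sham Chow mice and 59.7, 51.0, 44.1, 63.1 and 73.6 CPM in RYGB Chow mice. On HFD it was 54.2, 43.0, 53.1, 65.0 and 54.8 CPM after sham surgery and 78.3, 81.8, 65.5, 44.8 and 45.1 CPM after bypass. The 4 groups overlapped throughout, with means from 48.8 ± 15.8 CPM in Sham Chow to 63.1 ± 17.7 CPM in RYGB HFD (SD, n = 5). Its log2 fold changes by surgery were 0.26 ± 0.20 on chow and 0.23 ± 0.20 on HFD, and those by diet 0.15 ± 0.20 in sham and 0.11 ± 0.20 in RYGB mice, with adjusted p-values of 0.686, 0.478, 0.624 and 0.823. One limit touches this gene more than the others. Of its 4414 annotated exon bases, 3304 (74.9%) also lie in exons of *Tomm40l* on the opposite strand, where *Cyp2a4* shares 3.51% with *Gm42375* and the other 8 genes share none. The libraries kept strand, but the strand setting of the counting is not given in the sources used here. In the count table, 488 of 492 genes that lie wholly under exons of the other strand had 0 counts in all 20 mice (99.2%), against 47.4% of all other genes, so reads in shared exons may have been left out and the *Nr1i3* values may rest mainly on its 1110 unshared bases.

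*Por* separated the diets in sham-operated mice. It was 328.5, 336.9, 355.1, 424.2 and 621.9 CPM in Sham Chow and 307.3, 251.5, 246.9, 202.9 and 259.8 CPM in Sham HFD, so that the highest Sham HFD liver was below the lowest Sham Chow liver. The log2 fold change of *Por* in Sham Chow vs. Sham HFD was -0.70 ± 0.17 (adjusted p = 0.00645). *Por* in the RYGB groups was 626.2, 385.5, 544.3, 383.7 and 539.2 CPM on chow and 393.7, 377.5, 314.2, 270.8 and 358.8 CPM on HFD. Those ranges overlapped, and the log2 fold change of -0.53 ± 0.17 had an adjusted p of 0.0897, which became 0.0356 with DESeq2 and 0.0404 without Sham Chow replicate 5. Between the HFD groups *Por* was 0.44 ± 0.17 higher after bypass on the log2 scale (adjusted p = 0.0888), which became 0.0231 in a fit of those groups alone and 0.0402 without Sham Chow replicate 5.

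*Cyp2b9*, a steroid hydroxylase, was 7.99, 1.96, 0.784, 19.4 and 0.665 CPM in Sham Chow and 80.4, 218.8, 273.7, 327.5 and 393.8 CPM in Sham HFD. After bypass it was 9.72, 6.23, 11.0, 1.76 and 26.2 CPM on chow and 8.41, 8.67, 4.31, 7.90 and 8.55 CPM on HFD. The lowest Sham HFD liver was above every liver of the other 3 groups, which overlapped one another. *Cyp2b9* in Sham Chow vs. Sham HFD had a log2 fold change of 5.45 ± 0.74 (adjusted p = 4.60e-05), and bypass on HFD one of -5.10 ± 0.73 (adjusted p = 7.45e-05). In RYGB mice the diets did not separate (-0.53 ± 0.67, adjusted p = 0.739), and the surgery by diet interaction, the diet difference in RYGB mice less that in sham mice, was -5.98 ± 0.98 (adjusted p = 0.00179).

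*Cyp2b13*, the close copy of *Cyp2b9*, was seen almost only in Sham HFD, where the 5 livers held 43, 156, 239, 127 and 240 reads (2.49, 7.19, 10.1, 7.59 and 10.5 CPM). Sham Chow livers held 6, 0, 0, 6 and 0 reads, RYGB Chow livers 3, 0, 0, 0 and 0, and RYGB HFD livers none. It passed the filter on low counts through Sham HFD alone, so some difference from that group was bound to follow. Its values are therefore described with no test. In Sham Chow vs. Sham HFD its log2 fold change was 5.78 ± 0.67. With a floor of 3 counts per library for the RYGB HFD mice, *Cyp2b13* was at least 43.6-fold lower after bypass on HFD than after sham surgery.

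*Cyp2a4*, another steroid hydroxylase, was 0.0963, 0.671, 0.138, 1.57 and 0.484 CPM in Sham Chow and 12.6, 26.1, 17.6, 16.01 and 38.4 CPM in Sham HFD. In RYGB Chow it was 2.61, 0.322, 13.2, 1.90 and 3.05 CPM, and in RYGB HFD 0.434, 1.04, 0.230, 0.0590 and 0.265 CPM. Sham HFD stood above Sham Chow and RYGB HFD in every liver, and 1 RYGB Chow liver, replicate 3, reached into its range. For *Cyp2a4* the diet effect in sham mice was 5.34 ± 0.75 (adjusted p = 6.02e-05) and the surgery effect on HFD -5.70 ± 0.77 (adjusted p = 4.62e-05), both as log2 fold changes. The surgery effect on chow was 2.94 ± 0.76 with an adjusted p of 0.168, and 1.85 without RYGB Chow replicate 3. Its level in RYGB Chow vs. RYGB HFD was among the values known at selection and is only described: the log2 fold change was -3.30 ± 0.79, and -2.21 without RYGB Chow replicate 3.

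*Cyp2a22* was 3.42, 3.97, 2.26, 11.8 and 4.11 CPM in Sham Chow and 40.4, 53.0, 43.5, 50.7 and 70.5 CPM in Sham HFD. It was 14.8, 5.59, 7.40, 3.80 and 11.8 CPM in RYGB Chow and 10.3, 10.5, 13.9, 3.83 and 6.83 CPM in RYGB HFD. Sham HFD again stood above every other liver. The log2 fold change of *Cyp2a22* was 3.38 ± 0.41 by diet in sham mice (adjusted p = 1.29e-05) and -2.50 ± 0.39 by surgery on HFD (adjusted p = 1.59e-04). It was 0.07 ± 0.39 in RYGB Chow vs. RYGB HFD (adjusted p = 0.951), and the interaction was -3.31 ± 0.56 (adjusted p = 0.00206). Outside Sham HFD, the Sham Chow liver of replicate 4 held the highest *Cyp2a22*, *Cyp2b9* and *Cyp2a4* of its group.

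*Cyp2b10*, the classical CAR target, was 16.4, 3.92, 6.09, 12.1 and 13.4 CPM in Sham Chow and 0.867, 1.75, 2.40, 1.91 and 2.27 CPM in Sham HFD, without overlap. Its log2 fold change in Sham Chow vs. Sham HFD was -2.48 ± 0.52 (adjusted p = 0.00215), the opposite direction to its neighbours *Cyp2b9* and *Cyp2b13*. RYGB Chow livers held 52, 51, 1, 16 and 72 *Cyp2b10* reads (2.82, 2.74, 0.0548, 0.780 and 4.06 CPM), and RYGB HFD livers held 0, 0, 0, 1 and 0. In RYGB Chow vs. RYGB HFD the summed counts stood at 192 against 1, a ratio of 179 after scaling (95% counting interval 31.7 to 7103), and the adjusted p was 0.00133. The lowest RYGB Chow liver, with 1 read, overlapped the RYGB HFD group. The surgery contrasts of *Cyp2b10* were known at selection and are only described: its log2 fold change by bypass on chow was -2.31 ± 0.52, and the ratio of Sham HFD to RYGB HFD was 165 (95% counting interval 29.3 to 6557). These intervals cover counting error only.

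*Cyp2a5*, the most abundant of the 10 genes in CPM in the chow groups and in Sham HFD, was 793, 365, 488, 1204 and 1038 CPM in Sham Chow and 964, 850, 341, 962 and 1384 CPM in RYGB Chow. It was 733, 433, 622, 647 and 766 CPM in Sham HFD and 592, 465, 376, 314 and 230 CPM in RYGB HFD. RYGB HFD had the lowest mean, 396 ± 140 CPM (SD, n = 5), but overlapped every other group. *Cyp2a5* in RYGB Chow vs. RYGB HFD had a log2 fold change of -1.19 ± 0.33 (adjusted p = 0.0487). This call was narrow: the adjusted p was at or above 0.05 in 15 of the 20 fits that left out 1 mouse, reaching 0.124, and stayed below it without Sham Chow replicate 2, 3 or 4, RYGB Chow replicate 3 or RYGB HFD replicate 1. A fit of the 2 groups alone gave an adjusted p of 0.0914. The other contrasts of *Cyp2a5* were not called, with log2 fold changes of -0.69 ± 0.33 by surgery on HFD (adjusted p = 0.155), -0.28 ± 0.33 by diet in sham mice (adjusted p = 0.568) and 0.21 ± 0.33 by surgery on chow (adjusted p = 0.870).

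*Cyp2a12*, a hydroxylase of steroids and bile acids in mouse liver, varied least between groups. On chow its means were 515 ± 91.3 CPM after sham surgery and 518 ± 94.6 CPM after bypass, and on HFD 537 ± 27.6 and 505 ± 48.2 CPM (SD, n = 5), and the 20 livers ran from 367 to 627 CPM. Its log2 fold changes in the 4 contrasts lay between -0.09 and 0.06, each with an SE of 0.13, and the adjusted p-values between 0.676 and 0.989.

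**Figure D2:**
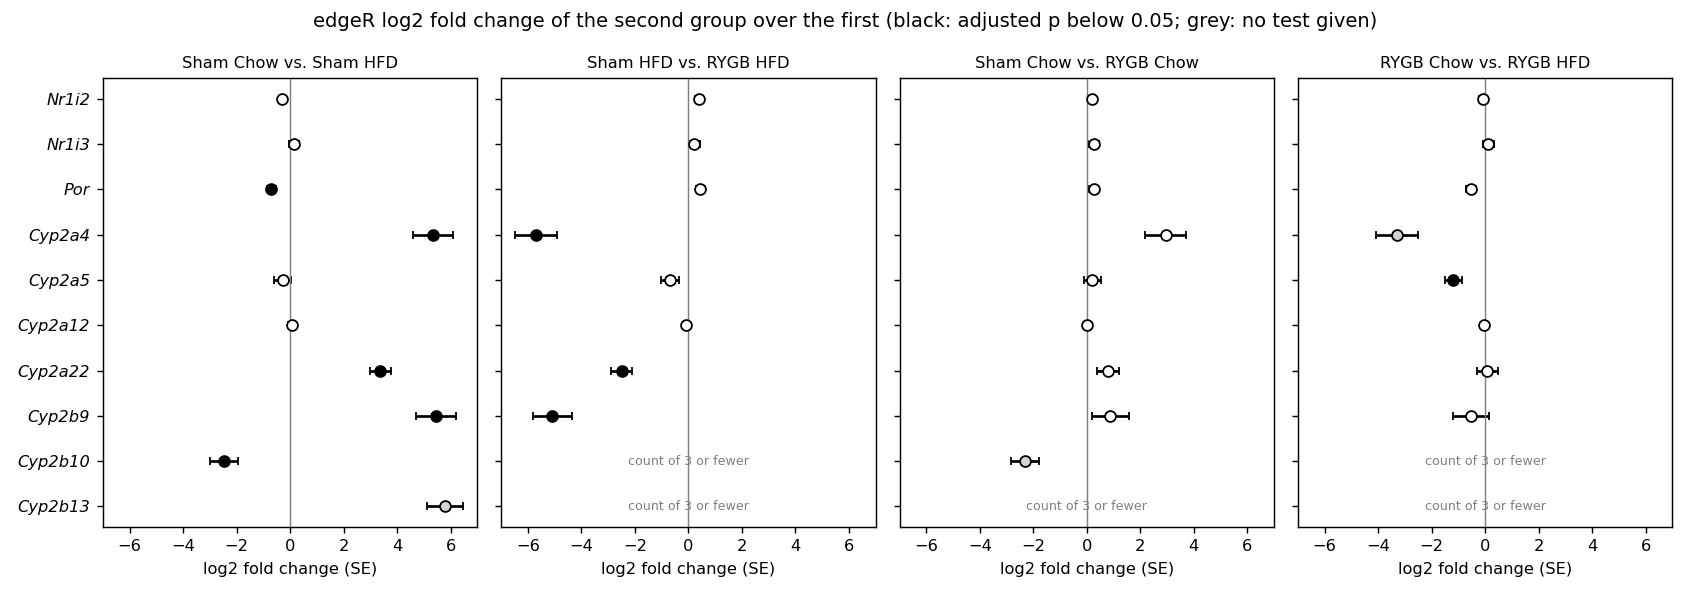
Fitted log2 fold change (horizontal axis, point and SE) of each of the 10 genes in the 4 contrasts, the second group over the first. Black points passed an adjusted p of 0.05, white points did not, grey points are described with no test, and the note marks contrasts in which a group held 3 reads or fewer in all. In Sham Chow vs. Sham HFD 3 black points lie above 0 and 2 below, and *Cyp2a12* lies at 0 in every panel.

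All 10 genes passed the filter on low counts, *Cyp2a4* through Sham HFD and RYGB Chow. Without *Cyp2b13*, whose call followed from the filter, 3 of 9 genes were called higher in Sham HFD than in Sham Chow and 2 lower. Of all tested genes, 10.9% were called higher and 10.7% lower. By surgery on HFD, of the 8 genes other than *Cyp2b10* and *Cyp2b13*, none was called higher and 3 lower (all tested genes: 8.54% higher and 7.90% lower). In RYGB Chow vs. RYGB HFD, of the 9 genes other than *Cyp2a4*, none was higher and 2 lower, *Cyp2a5* and *Cyp2b10* (all tested genes: 1.99% higher and 1.65% lower). By surgery on chow, of the 9 genes other than *Cyp2b10*, edgeR and DESeq2 each called 0, where 0.0488% of all tested genes were called higher and 0.00814% lower, and 1 of the 9, *Cyp2a4*, had an unadjusted p below 0.05. Of the 12289 tested genes, 1325 passed that unadjusted level. The interaction was called for 2 of 8 genes, both below 0 (all tested genes: 2.48% above 0 and 2.58% below). All 4 contrasts draw on the same 4 groups, so those that share a group are not independent, and since the genes were selected with group values known these counts describe the set and do not test it. The smallest p that the exact permutation test of 5 against 5 mice can give is 0.00794, and it was reached in sham mice by diet for *Cyp2b9*, *Cyp2a4*, *Cyp2a22*, *Por* and *Cyp2b10*, and on HFD by surgery for the first 3 of them. It is reached whenever the compared groups do not overlap. The share of all tested genes that separate in this way was not computed, so these cases only describe the set.

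Per kilobase of annotated exon, the rank of the genes changed with the group. *Cyp2a5* stood first in all 4 groups, from 191 ± 67.4 CPM per kb in RYGB HFD to 434 ± 180 CPM per kb in RYGB Chow, and *Cyp2a12* second, from 146 ± 13.95 to 155 ± 7.97 CPM per kb (SD, n = 5). In RYGB HFD those 2 genes lay within their spread of each other. *Cyp2b9* held the third place in Sham HFD, at 138 ± 63.4 CPM per kb, within its spread of *Cyp2a12* and above *Por* at 63.1 ± 9.26. In the other groups *Cyp2b9* was below both receptors, at 3.28 ± 4.25 CPM per kb in Sham Chow, 5.85 ± 4.92 in RYGB Chow and 4.03 ± 0.983 in RYGB HFD. *Cyp2b10* ranked above *Cyp2b9* in Sham Chow, at 4.91 ± 2.46 CPM per kb and within its spread, and at the tenth place in Sham HFD. *Nr1i2* ran from 26.1 ± 1.09 to 36.1 ± 4.03 CPM per kb. *Nr1i3* ran from 11.1 ± 3.58 to 14.3 ± 4.00 CPM per kb over all its exons. If every read came from the 1110 bases free of *Tomm40l*, the same counts would give 44.0 ± 14.2 to 56.8 ± 15.9. The place of *Nr1i3* relative to *Nr1i2* therefore depends on which exons were counted.

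Close copies can share reads, and how reads with several matches were handled is not given in the sources used here. Of the 150-base stretches of a transcript, the read length of the study, 4.22% of *Cyp2a4* were found unchanged in *Cyp2a5* and 5.79% of *Cyp2a5* in *Cyp2a4* or the pseudogene *Cyp2a21-ps*. For *Cyp2a12* and *Cyp2a22* 3.72% and 3.46% were shared with each other. *Cyp2b9* and *Cyp2b10* shared none, and *Cyp2b13* shared 5.04% with the gene model *Gm45225*. With the counts of *Cyp2a4* and *Cyp2a5* added up, the sum follows the far more abundant *Cyp2a5*: its log2 fold change was -0.23 ± 0.32 by diet in sham mice (adjusted p = 0.638) and -0.74 ± 0.32 by surgery on HFD (adjusted p = 0.123). The sum of the 3 *Cyp2b* genes follows *Cyp2b9*, at 4.02 ± 0.54 (adjusted p = 4.00e-05) and -5.14 ± 0.58 (adjusted p = 7.92e-06) in the same contrasts.

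Whether mice of 1 group with more receptor mRNA also had more enzyme mRNA was asked from the deviations of log2(CPM + 0.5) from each group's mean, which do not use the group differences known at selection. Among 17 relations of a receptor with another of the 10 genes, 1 was called. *Nr1i3* and *Cyp2a5* rose and fell together within groups, with Pearson's r = 0.783 over 20 mice (permutation p = 2e-04, adjusted p = 0.0034) and Spearman's rho = 0.809 (permutation p = 0.00017, adjusted p = 0.00289). The coefficient was 0.777 without the 2 mice whose *Nr1i3* lay farthest from the median, and between 0.752 and 0.855 with any 1 mouse left out. Within the single groups of 5 mice it was 0.708 in Sham Chow and 0.916 in RYGB Chow mice, and 0.710 and 0.898 in the corresponding HFD groups. The SD of the deviations was 0.346 for *Nr1i3* and 0.607 for *Cyp2a5* on the log2 scale. Between groups the 2 genes did not run in parallel. RYGB HFD had the highest mean *Nr1i3* (63.1 CPM) and the lowest mean *Cyp2a5* (396 CPM). With group differences kept, r over the 20 livers was 0.428, given as a description. *Tomm40l*, which shares exons with *Nr1i3*, had r = 0.584 with *Nr1i3* and 0.429 with *Cyp2a5* on the same scale, given as a description.

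**Figure D3:**
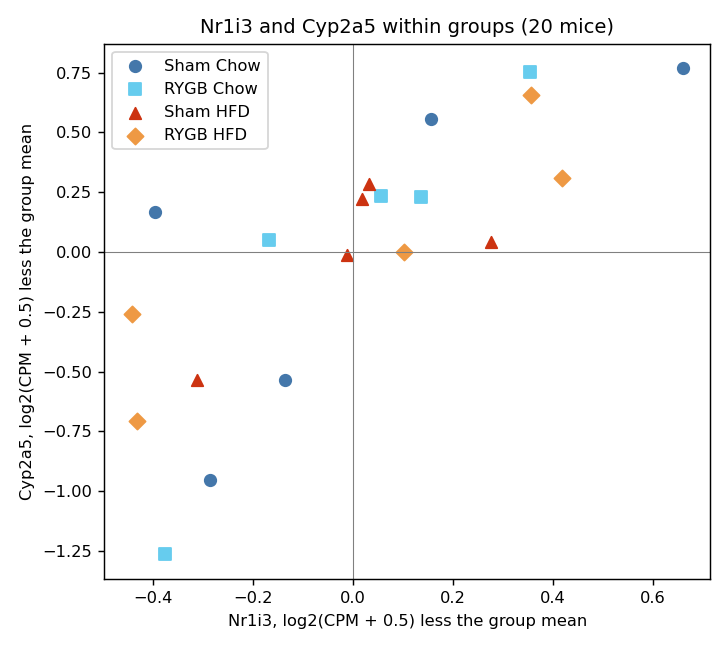
Each point is 1 of 20 mice, with its *Nr1i3* deviation from the group mean on the horizontal axis and its *Cyp2a5* deviation on the vertical axis, both in log2(CPM + 0.5). Points run from lower left to upper right in all 4 groups (r = 0.783).

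*Nr1i3* and *Cyp2a22* had r = 0.613 (permutation p = 0.0176, adjusted p = 0.149), which was 0.288 without the 2 mice farthest from the median, Sham Chow replicate 4 and RYGB HFD replicate 4. For *Nr1i3* and its classical target *Cyp2b10* r was 0.307 (permutation p = 0.205, adjusted p = 0.555). For *Nr1i2* the 9 coefficients lay between -0.326 with *Nr1i3* and 0.201 with *Cyp2a12*, and their adjusted p-values between 0.555 and 0.942.

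Over all 20 livers, group differences included, the genes high in Sham HFD tracked each other: r of log2(CPM + 0.5) was 0.927 for *Cyp2a22* and *Cyp2b9*, 0.912 for *Cyp2b9* and *Cyp2b13*, and 0.846 for *Cyp2a4* and *Cyp2b9*. The 2 tested genes outside the set most like *Cyp2b9* were *Slc22a27*, an organic anion transporter (r = 0.913), and *Hao2*, a peroxisomal hydroxyacid oxidase (r = 0.901). *Slc22a27* was also most like *Cyp2a22* (r = 0.944, next *Ly6d* at 0.940), and *Hao2* came second for *Cyp2b13* (r = 0.952, first *A4gnt* at 0.954). For *Cyp2a4* they were *Psap* (0.888) and *Slc22a27* (0.884), for *Cyp2b10* *Uqcrfs1* (0.897) and *Tmem59* (0.889), and for *Cyp2a5* *Ces2c* (0.860) and *Tmem14c* (0.809). *Nr1i2* was most like *Gucd1* (0.887) and *Plin5* (0.877), *Nr1i3* like *Zc3h6* (0.754) and *Hgfac* (0.754), *Por* like *Slc19a1* (0.849) and *Pnpla2* (0.843), and *Cyp2a12* like *mt-Nd6* (0.852) and *Adk* (0.828). These coefficients share libraries and groups and are a description only.

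The known sex bias of *Cyp2b9*, *Cyp2b13* and *Cyp2a4* was set beside lists of other sex-biased liver genes in these male mice. Of 11 genes known to be higher in male liver, 10 fell in Sham HFD against Sham Chow (median log2 fold change -1.86, against -0.00463 over all tested genes) and 8 were higher in RYGB HFD than in Sham HFD (median 1.60, against 0.00946). Of all tested genes, 10.7% fell in the first contrast and 8.54% were higher in the second. Of 13 others known to be higher in female liver only 4 passed the filter, and these went both ways: *Hao2* and *Cyp17a1* rose by 5.08 ± 0.67 and 1.75 ± 0.49 (log2) with HFD in sham mice (adjusted p = 3.00e-05 and 0.0146), while *Cyp2c40* fell by 2.77 and *Cyp2c69* fell by 2.96 (adjusted p = 0.0157 and 0.0417). These 4 were named after their values were seen.

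Calls among other target genes of CAR and PXR were set beside those over all tested genes. This list was chosen with earlier results of these data known. The study had already named some of its genes as lower with HFD, *Cyp3a11*, *Ephx1* and *Gstm3* among them. The counts and adjusted p-values below therefore describe the list and do not test it. Of 32 tested, 5 rose and 12 fell in Sham HFD against Sham Chow (median log2 fold change -0.18). There 10.9% of all tested genes rose and 10.7% fell, so the 5 risers were not far above that share. None rose and 13 fell in RYGB HFD against RYGB Chow (median -0.69, against 0.00482 over all tested genes). There 1.99% of all tested genes rose and 1.65% fell. *Cyp3a11*, the main PXR-induced P450 gene, fell by 2.76 with HFD in sham mice and fell by 3.67 with HFD in RYGB mice, as log2 values (SE 0.21 and 0.22, adjusted p = 5.33e-08 and 2.06e-09). *Ces2a*, a carboxylesterase, fell by 2.31 and fell by 1.71 in the same contrasts (adjusted p = 6.62e-09 and 9.61e-07), and *Cyp2c54*, an epoxygenase, fell by 3.11 in Sham HFD against Sham Chow (adjusted p = 1.29e-05). By surgery on HFD 4 of the 32 were higher and 12 lower (median -0.27), where 8.54% of all tested genes were higher and 7.90% lower. Among the lower ones were the epoxide hydrolase gene *Ephx1* at -1.51 ± 0.17, the glutathione transferase gene *Gstm1* at -1.13 ± 0.14 and the export pump gene *Abcc3* at -1.06 ± 0.13 (adjusted p = 9.46e-06, 1.85e-05 and 1.94e-05). The interaction was called above 0 for 1 and below 0 for 8 of the 32 (all tested genes: 2.48% above 0 and 2.58% below). Above 0 was *Cyp2c54* at 2.68 ± 0.50 (adjusted p = 0.00428). Below 0 were, among others, *Gstm3* at -3.02 ± 0.42, *Gstm2* at -1.83 ± 0.28 and *Gstm1* at -1.21 ± 0.20 (adjusted p = 3.69e-04, 0.00118 and 0.00159). By surgery on chow edgeR called 0 of the 32, with 6 at an unadjusted p below 0.05 (all tested genes: 0.0488% called higher and 0.00814% lower). Of the 12289 tested genes, 1325 had an unadjusted p below 0.05 there.

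**Figure D4:**
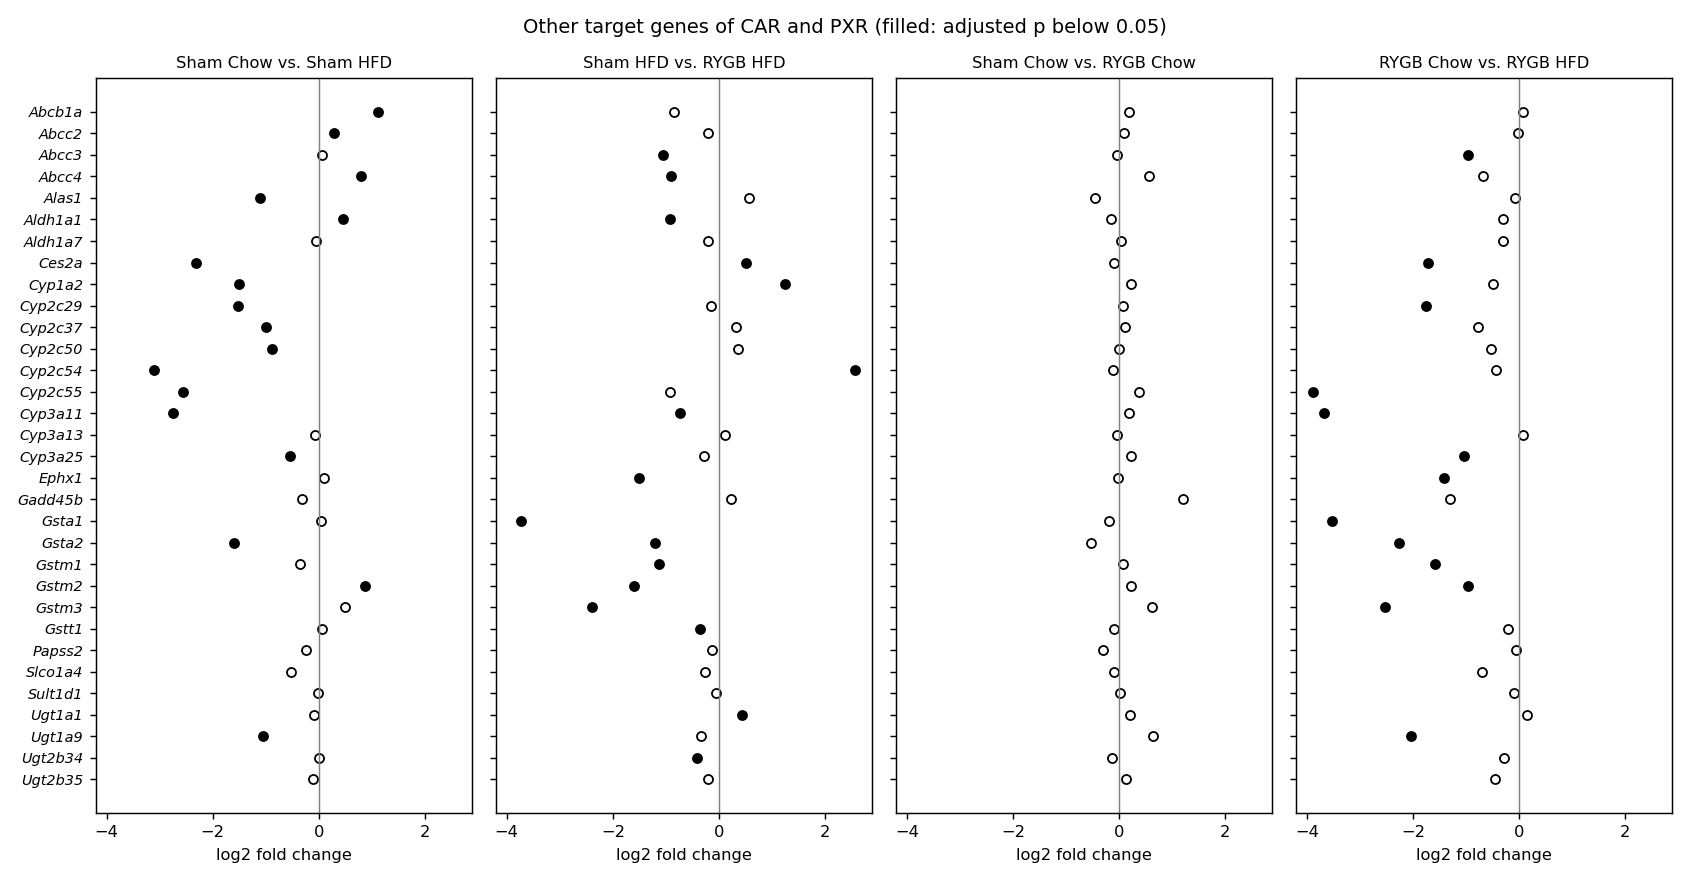
Fitted log2 fold change (horizontal axis) of 32 other target genes of CAR and PXR in the 4 contrasts, the second group over the first. Filled points passed an adjusted p of 0.05: from left to right 5 higher and 12 lower, 4 higher and 12 lower, 0, and 13 lower.

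Of 19 partners and coregulators of the receptors, 5 fell and none rose in Sham HFD against Sham Chow, and 4 rose and none fell in RYGB HFD against Sham HFD. Of all tested genes, 10.7% fell and 10.9% rose in the first contrast, and 8.54% rose and 7.90% fell in the second. *Egfr*, the growth factor receptor whose signal keeps CAR in the cytoplasm, moved most: its log2 level fell by 2.66 with HFD in sham mice (SE 0.35, adjusted p = 3.00e-05) and was 2.88 ± 0.35 higher in RYGB HFD than in Sham HFD (adjusted p = 1.80e-05), with an interaction of 2.75 ± 0.47 (adjusted p = 0.00231). *Cebpa*, a liver transcription factor, fell by 0.30 and *Dnajc7*, a chaperone that holds CAR, fell by 0.24 in Sham HFD against Sham Chow (adjusted p = 0.0156 and 0.0215). The hepatocyte factor gene *Hnf4a* was 0.49 ± 0.13 higher in RYGB HFD than in Sham HFD (adjusted p = 0.0166). Neither the diet contrast in RYGB mice nor the surgery contrast on chow called any of the 19 by edgeR, with 1 at an unadjusted p below 0.05 in each. Of the 12289 tested genes, 2308 and 1325 passed that unadjusted level.

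Of 12 genes that supply P450 enzymes with electrons or heme, none rose and 2 fell with HFD in sham mice (all tested genes: 10.9% and 10.7%). These were *Alas1*, the first enzyme of heme synthesis, and *Fech*, the last, with log2 fold changes of -1.11 and -0.24 (adjusted p = 0.0360 and 0.0150). By surgery on HFD none of the 12 was higher and 2 lower (all tested genes: 8.54% and 7.90%). In RYGB Chow vs. RYGB HFD 1 was higher and 1 lower (all tested genes: 1.99% and 1.65%). Counts this small do not set the list apart from those shares. *Pgrmc1*, a heme-binding partner of P450 enzymes, was lower in RYGB HFD livers than in those of Sham HFD (-0.52 ± 0.08, adjusted p = 1.13e-04) and RYGB Chow (-0.45 ± 0.08, adjusted p = 0.00205). The study already lists *Pgrmc1* as downregulated with HFD in RYGB mice, so its value against RYGB Chow is only a description. *Cyb5b*, a cytochrome b5 of the mitochondrial outer membrane, was also lower after bypass on HFD (-0.52 ± 0.11, adjusted p = 0.00243), and *Uros*, a heme synthesis enzyme, was higher in RYGB HFD than in RYGB Chow (0.41 ± 0.10, adjusted p = 0.0244). Between Sham Chow and RYGB Chow none of the 12 was called, with 1 at an unadjusted p below 0.05, against 1325 of 12289 tested genes. On chromosome 7, 2 of 6 other genes of the *Cyp2* cluster were tested, *Cyp2f2* and *Cyp2g1*. Both fell in Sham HFD against Sham Chow, with log2 fold changes of -0.81 and -1.57 (adjusted p = 1.51e-04 and 0.0452), where 10.7% of all tested genes fell.

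Markers of other liver cells moved between the groups as well. Of all tested genes, 10.9% rose and 10.7% fell in Sham HFD against Sham Chow. By surgery on HFD 8.54% were higher and 7.90% lower. Of 7 markers of stellate cells and fibroblasts, 7 rose in Sham HFD against Sham Chow and 4 of the 7 were lower in RYGB HFD livers than in those of Sham HFD, and their summed level on chow was 138.5 to 228 CPM after sham surgery and 192.5 to 246.4 after bypass, and on HFD 302.5 to 369.6 and 196.5 to 295.7. Of 7 markers of Kupffer cells and macrophages 5 rose in Sham HFD against Sham Chow, and edgeR called none by surgery, with 0 at an unadjusted p below 0.05 on HFD and 7 on chow (median log2 fold change 0.09 and 0.89). Of all 12289 tested genes, 3772 had an unadjusted p below 0.05 by surgery on HFD and 1325 on chow. The summed level of these 7 markers on chow was 110.4 to 292.3 CPM after sham surgery and 229.9 to 553.2 after bypass, and on HFD 267.3 to 361.6 and 234.3 to 430.8. Hepatocyte markers, which fit the labelled tissue, summed to 75892 CPM or more in every liver, and of 6 tested 3 fell in Sham HFD against Sham Chow, while 4 were higher and 1 lower by surgery on HFD. Of 10 pericentral hepatocyte markers 4 rose and 1 fell in Sham HFD against Sham Chow, and of 8 periportal ones none rose and 4 fell. By surgery on HFD 2 pericentral markers were higher and 3 lower, and 1 periportal marker was higher and 1 lower. Some genes stand in more than 1 list: *Cyp1a2* also among the other targets, *Cyp2f2* among the cluster genes, and *Alas1* among both the supply genes and the other targets. Of the 6 endothelial, 1 lymphocyte and 5 red cell precursor markers tested, edgeR called none in the 4 contrasts (0 to 1 of a list at an unadjusted p below 0.05), and 1 of 2 cholangiocyte markers rose with HFD in sham mice. In these contrasts 1325 to 4392 of the 12289 tested genes passed that unadjusted level. No marker of the first 5 lists was at 0 in all mice of a group. The part of cell make-up or zonation in the P450 results was not tested, and in whole liver fewer cells of a type and less RNA per cell cannot be told apart.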

How the data were processed

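Per the labels and the study's methods, the authors extracted RNA with TRIzol, made strand-specific poly-A libraries, trimmed paired reads with Trimmomatic 0.36, aligned them to mm10 with HISAT2 2.1.0 and counted genes with featureCounts 1.5.0-p3. The deposited table holds their raw counts for 54532 genes in 20 mice, and all 20 columns were mapped by the names in the labels. No batch is named. No 2 columns were identical. Counts are per gene and not per transcript, and total counts of 14604854 to 22537498 limit genes near 0 reads.

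Genes with at least 2 CPM in at least 3 mice (12289) were tested with edgeR 4.0.16 (quasi-likelihood, TMM factors, 1 model of 4 groups). Fits were tested on simulated data. Alternatives were DESeq2 1.42.0, other scalings and filters, a fit of 2 groups, a replicate block, summed close copies and each mouse left out in turn. Correlations used 100000 permutations within groups. Sequence comparisons used Biopython and motifs were searched on both strands.

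The 10 genes and all gene lists were chosen with earlier results of these data known, so counts over them describe these sets and do not test them. Values known at selection (*Cyp2b10* by surgery, *Cyp2a4* in RYGB Chow vs. RYGB HFD, and the interactions of both) and those of *Cyp2b13*, which passed the filter through Sham HFD alone, were described without a test. All 10 genes were named. From the lists of partners, electron and heme supply, and other targets, up to 3 called genes with the smallest adjusted p were named in each contrast, except 1 that is not reported here, and other lists were given as counts. The 2 most alike genes of each were taken by Pearson's r over 20 mice. Adjusted p-values are from edgeR unless another tool is named.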

Additional observations from a re-analysis of the deposited data

Results flagged for a closer look

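In 37 sets of 5 mice checked for a value far from the rest, which chance alone gives in about 1 set in 20, 3 stood out. *Cyp2a4* was 13.2 CPM in RYGB Chow replicate 3, above 0.322 to 3.05 CPM in the other mice of that group. *Cyp2a22* was 11.8 CPM in Sham Chow replicate 4, above 2.26 to 4.11 CPM in the others. *Cyp2b9* was 4.31 CPM in RYGB HFD replicate 3, below 7.90 to 8.67 CPM in the others.

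The response to diet differed between sham and RYGB mice for 2 genes by the interaction term: *Cyp2a22* at -3.31 and *Cyp2b9* at -5.98 on the log2 scale. For both, the change with HFD was lower in RYGB mice than in sham mice.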

How the results depend on the processing

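*Cyp2b13*, whose calls against Sham HFD followed from the filter, is left out of what follows. In all 20 fits that left out 1 mouse, *Cyp2b9*, *Cyp2a4*, *Cyp2a22*, *Por* and *Cyp2b10* were called in Sham Chow vs. Sham HFD. The first 3 of them were also called in Sham HFD vs. RYGB HFD in all 20, and *Cyp2b9* and *Cyp2a22* in the interaction. The count of called genes in these fits was 0 in Sham Chow vs. RYGB Chow and 1 to 2 in RYGB Chow vs. RYGB HFD. DESeq2 added *Nr1i2* in Sham HFD vs. RYGB HFD and *Por* in RYGB Chow vs. RYGB HFD. A fit of only the 2 groups added *Por* and *Cyp2a5* in Sham HFD vs. RYGB HFD. The count in RYGB Chow vs. RYGB HFD was 1 with the replicate block and 1 in a fit of only the 2 groups, both without *Cyp2a5*. Replicate numbers did not pair the mice (median correlation of same-numbered mice -0.0143, other pairs -0.00666), and 3 of 20 mice correlated best with their own number. Adding up close copies turned *Cyp2a4* to -0.23 in Sham Chow vs. Sham HFD, *Cyp2b9* to -0.34 in Sham Chow vs. RYGB Chow and *Cyp2b10* to 4.02 in Sham Chow vs. Sham HFD, since the sum follows the most abundant copy. Leaving out 1 mouse turned the sign of uncalled log2 fold changes: *Cyp2a12* ran from -0.083 to 0.11 in Sham Chow vs. RYGB Chow, from -0.034 to 0.14 in Sham Chow vs. Sham HFD and from -0.14 to 0.025 in RYGB Chow vs. RYGB HFD. In RYGB Chow vs. RYGB HFD *Cyp2a22* ran from -0.13 to 0.36, *Cyp2b9* from -0.81 to 0.083, *Nr1i2* from -0.25 to 0.012 and *Nr1i3* from -0.00085 to 0.22. The correlation of *Nr1i3* and *Cyp2a5* stayed called with a pseudocount of 1 and with library size only (adjusted p up to 0.0144). Depth limits *Cyp2b13*, *Cyp2b10* and *Cyp2a4* near 0 reads.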
